A study of Mus musculus with 34 samples.

Results

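Glycolysis enzymes come in isoenzymes, products of separate genes that catalyse 1 step, and adult liver and proliferating tissue are known for different sets of them. The genes described here are 8 such enzymes: Hk2, Pfkl, Aldoa, Pgk1, Eno1, Pklr, Pkm and Ldha. They were taken by symbol from mouse RNA sequencing tables, where all 8 of them are among the 14086 genes with normalized counts and 2 of them, Pkm and Pgk1, are among the 1659 genes with z-scores. The series has 34 libraries in 9 groups and asks what distinguishes liver cancers that arise with exon-skipped beta-catenin. Normalized counts covered 18 of these libraries. The groups were skip 1 isoform induced (skip1 induced, n = 5), skip 2 isoform induced (skip2 induced, n = 2), ΔN90-β-catenin induced (ΔN90 induced, n = 4), the skip 1 isoform alone (skip1 alone, n = 3), the skip 2 isoform alone (skip2 alone, n = 2) and wild type (n = 2). Z-scores of the other 16 libraries covered subtype A (n = 4), subtype B (n = 9) and sgActin with YAPS127A (n = 3).

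The skip isoforms are forms of beta-catenin, the effector of Wnt signalling, that lack an exon, and ΔN90 is a form without its N-terminal stretch. YAPS127A is a constitutively active form of the coactivator YAP. What the word induced stands for beyond this is not spelled out in the labels, and age, strain and sex are not given there. Hydrodynamic delivery, in which a large volume pushed quickly into the blood carries plasmids into a part of the hepatocytes, is named for every sample. Samples may therefore mix altered cells with the host's own liver cells, in a share that was not measured. The RNA is labelled as coming from frozen liver tumours for all groups, wild type included. For the 4 skip2 libraries a second label field says skip 1, and the source label was followed. Whether each library is a different mouse is not stated, and the p-values reflect variation among these libraries alone, which may be technical.

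Glycolysis turns glucose into pyruvate in the cytosol. Hepatocytes make pyruvate mainly with the liver-type pyruvate kinase encoded by Pklr. Many tumours are known to use hexokinase 2 (Hk2), aldolase A (Aldoa) and the pyruvate kinase encoded by Pkm. Pgk1, Eno1 and Ldha encode the common forms of phosphoglycerate kinase, enolase and lactate dehydrogenase A, which serve the pathway in most tissues, and glucose output by the liver runs through phosphoglycerate kinase and enolase in reverse.

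Promoter sequences are shown for the member that was higher in every induced group, the member that was lower in every induced group, and the member with the most copies of a motif known from hypoxia-responsive genes. RefSeq windows from 250 bases before to 50 bases after a transcript start (GRCm38.p6, the mm10 assembly) were found for all 8 genes, 15 windows in all. Capitals mark ACGTG or its reverse complement CACGT, the core of the element bound by hypoxia-inducible factors. This core is also part of the E-box CACGTG, bound by MYC and by the carbohydrate-responsive factor ChREBP, which Mlxipl encodes.
Pkm, chr9:59656977-59657276, plus strand: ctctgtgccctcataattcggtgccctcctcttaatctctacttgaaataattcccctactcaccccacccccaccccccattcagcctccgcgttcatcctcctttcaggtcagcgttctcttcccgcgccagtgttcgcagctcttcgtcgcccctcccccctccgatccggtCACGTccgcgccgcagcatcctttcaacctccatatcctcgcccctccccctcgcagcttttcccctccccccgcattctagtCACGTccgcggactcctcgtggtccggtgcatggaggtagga
Pgk1, chrX:106186850-106187149, plus strand: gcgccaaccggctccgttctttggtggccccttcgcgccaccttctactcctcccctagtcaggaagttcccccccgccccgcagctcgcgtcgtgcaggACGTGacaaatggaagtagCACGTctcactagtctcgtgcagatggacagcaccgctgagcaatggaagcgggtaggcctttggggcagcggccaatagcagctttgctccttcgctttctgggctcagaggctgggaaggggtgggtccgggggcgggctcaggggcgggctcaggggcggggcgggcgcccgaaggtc
Ldha, chr7:46845554-46845853, plus strand: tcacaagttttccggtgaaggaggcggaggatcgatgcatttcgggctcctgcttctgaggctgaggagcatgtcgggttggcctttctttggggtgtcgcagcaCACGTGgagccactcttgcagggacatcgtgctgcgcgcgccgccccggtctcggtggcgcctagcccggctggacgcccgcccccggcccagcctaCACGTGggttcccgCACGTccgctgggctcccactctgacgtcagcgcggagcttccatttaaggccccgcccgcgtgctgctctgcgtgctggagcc
The Pkm and the Pgk1 window held 2 copies of the core each, and the Ldha window held 5, of which 2 pairs overlapped as the E-box. Of all mouse windows, 8.21% held 2 or more copies and 0.746% held 4 or more. The GC content was 61.3% in the Pkm, 66.7% in the Pgk1 and 67.3% in the Ldha window. The core was present on either strand in 6 of the 15 windows, which belong to Aldoa, Hk2, Ldha, Pgk1 and Pkm, against 19.6% of 32851 mouse windows of the same length. CACGTG was in 1 of the 15 windows, that of Ldha, against 7.15% of all windows. CTTTGAT, a sequence bound by the TCF and LEF partners of beta-catenin, was found on either strand in 1 of the 15, a Pklr window, against 3.73% of all windows. GGGCGG, the GC box bound by SP1, was in 9 of the 15, against 35.7% of all windows. Those 9 windows had a GC content of 62.3% to 69.0%, where the median of all windows was 52.7%. Further, 2 Aldoa windows overlap each other, as do 2 Eno1 windows, so some sites are counted more than once. The other Pkm window and both Pklr windows held no ACGTG. These matches describe the letters of the windows only, and no binding was measured.

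The libraries were shallow, with 361772 to 933146 estimated reads each, so Pkm rested on 10 to 78 reads per library, Pgk1 on 95 to 294 and Hk2 on 0 to 11. The values of Hk2, Pgk1, Eno1 and Pkm were whole numbers of reads (within 0.001) in all 18 libraries, while those of Pfkl, Aldoa, Pklr and Ldha were fractional in all 18. The column totals of the normalized counts lay at 415528 to 524243 in the 11 induced libraries and at 610688 to 694773 in the other 7. Hepatocyte markers were abundant in every library, and the summed count of the 7 with a row (Alb, Ttr, Apoa1, Ahsg, Fgb, Serpina1a and Cps1) was 15180 to 47980 in induced libraries and 52690 to 74200 in the others. Among skip1 induced libraries, replicates 1 and 2 had the lowest Pkm and the highest Pklr. Some results of that group are therefore also given without them. Since these libraries were picked by values of the members, such results are no separate support.

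Of the 8 genes, 7 had a mean normalized count of at least 10 and were tested with limma on log2(normalized count + 1), and a gene is called changed at a Benjamini-Hochberg adjusted p under 0.05 over 6592 genes. A log2 difference on this scale understates the change of low genes. In skip1 induced against skip1 alone, Pkm rose and Pgk1 fell, 2 of 7 tested, where 14.7% of all tested genes were called. In skip2 induced against skip2 alone, Pkm and Pfkl rose and Pgk1 fell, 3 of 7, against 14.9% of all genes. In ΔN90 induced samples against the 7 livers without the induced condition, Pkm, Pfkl and Aldoa rose and Pgk1 fell, 4 of 7, against 37.6% of all genes. The median log2 difference of the 7 genes was 0.02, 0.20 and 0.22 in these comparisons, and that of all genes was -0.02, -0.06 and 0.01. The last comparison shares its skip1 alone and skip2 alone libraries with the other ones.

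**Figure D1:**
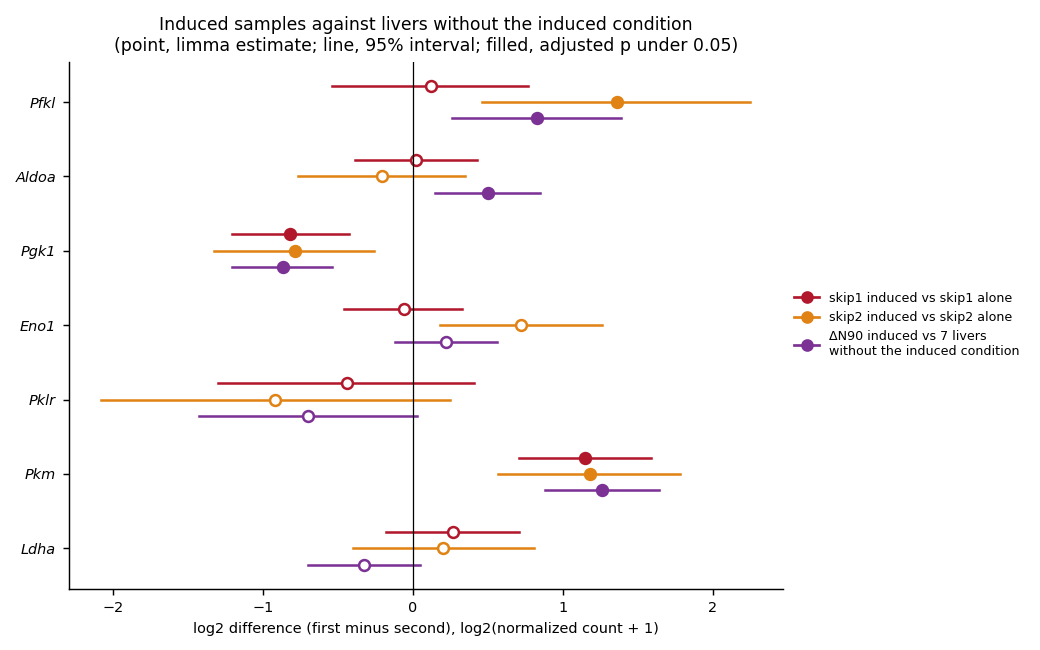
Log2 differences (x axis, first group minus second) of the 7 tested genes in 3 comparisons, with points for limma estimates, lines for 95% intervals and filled points for an adjusted p under 0.05. Pkm lies between 1.15 and 1.26 and Pgk1 between -0.87 and -0.79 in the 3 comparisons.

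Glucose phosphorylation is the entry step. Hk2 (chromosome 6, 82725025 to 82774454, minus strand, mm10 as are all positions here) encodes hexokinase 2, a form that is scarce in normal liver. Its normalized counts were 3.23, 3.70, 7.43, 5.42 and 3.19 in skip1 induced, 3.68 and 5.96 in skip2 induced, and 3.93, 3.06, 5.02 and 10.9 in ΔN90 induced libraries. They were 0, 0 and 1.07 in skip1 alone, 2.31 and 0 in skip2 alone and 1.13 and 4.99 in wild type libraries. All induced libraries stood above the isoform-alone libraries, but wild type replicate 2 lay within the induced range. This amounts to 65 estimated reads among 5912582 in the induced libraries and 10 among 3942688 in the others. Where Hk2 was listed at 0, a count of 0 allows a normalized count of up to 4.93 and 3.45 in skip1 alone replicates 1 and 2 and 4.12 in skip2 alone replicate 2, for counting error only.

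Hk2 stayed below the mean of 10 and was not tested. Without any filter on low values, its log2 difference was 2.08 for skip1, 1.65 for skip2 and 1.70 for ΔN90, and the skip1 and ΔN90 differences were called. These calls rest on 0 to 11 reads per library. The shares of all genes given above are those of the filtered fit and do not apply to them.

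**Figure D2:**
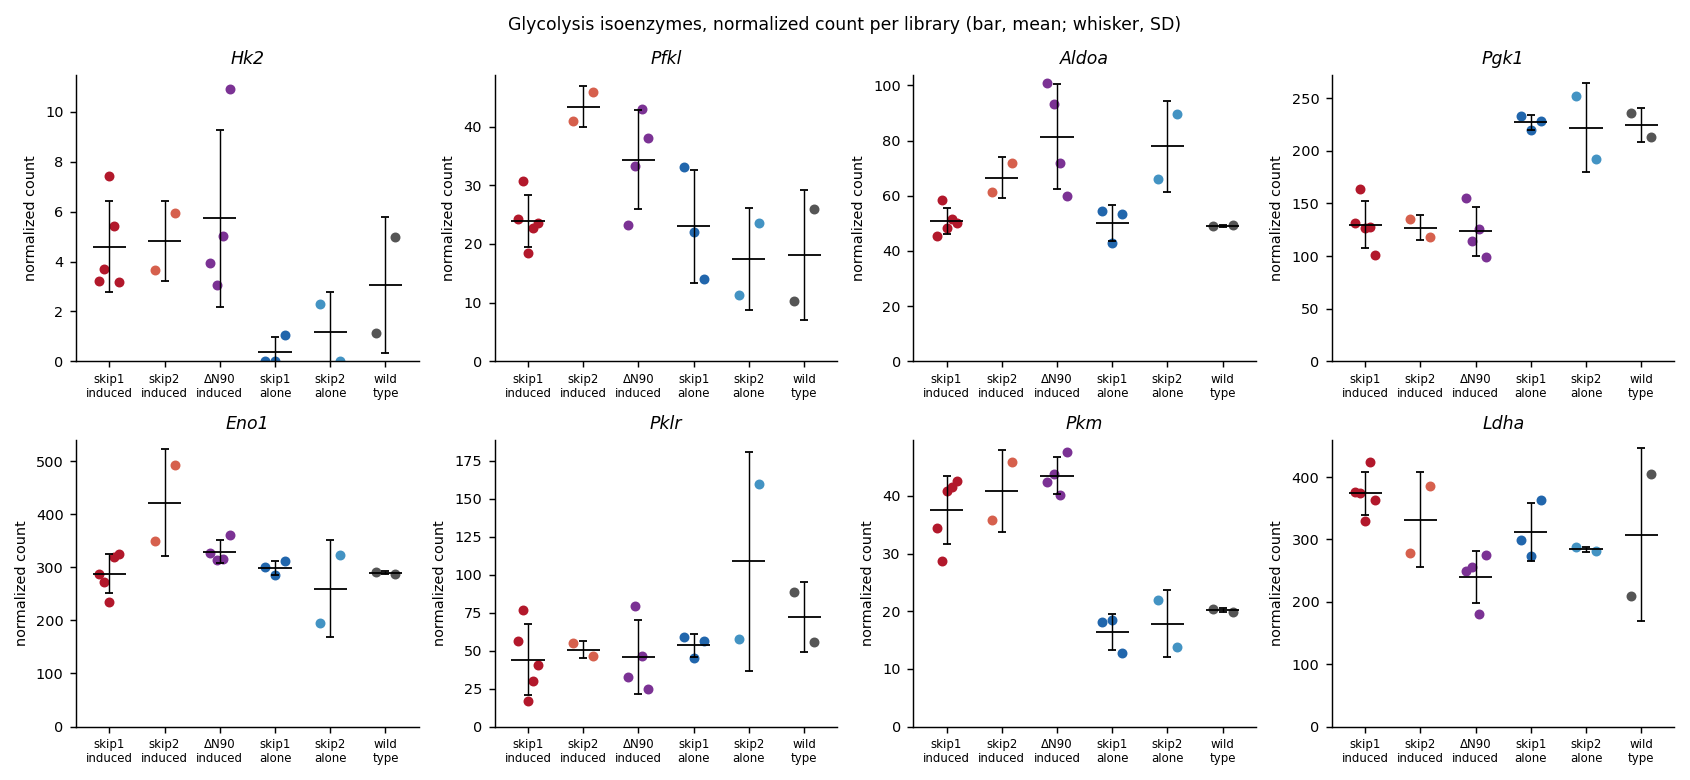
Normalized count per library (y axis, from 0) of the 8 genes in 6 groups (x axis), with a bar for the mean and a whisker for the SD. The 11 induced libraries lie at 28.7 to 47.7 for Pkm and the 7 others at 12.8 to 21.96, while for Pgk1 the induced libraries lie at 99.3 to 164 and the others at 192 to 252.

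Pfkl (chromosome 10, 77986947 to 78010083, minus strand) encodes the liver subunit of phosphofructokinase 1, the main control point of the pathway. Its normalized counts were 24.3, 30.7, 18.4, 22.7 and 23.6 in skip1 induced, 41.0 and 45.9 in skip2 induced and 23.2, 33.3, 42.9 and 38.0 in ΔN90 induced libraries. They were 33.12, 22.01 and 13.95 in skip1 alone, 11.2 and 23.5 in skip2 alone and 10.3 and 25.9 in wild type libraries. The skip2 induced libraries were above every library of the other livers, whereas skip1 induced and skip1 alone overlapped. For separations of single groups, here and elsewhere, the share among all genes was not determined.

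Pfkl was higher in skip2 induced than in skip2 alone by 1.36 in log2 (SE 0.43, limma adjusted p = 0.037), a 2.56-fold difference. This call was lost without skip2 induced replicate 1 or 2 or skip2 alone replicate 1, when the difference was as low as 0.86. In ΔN90 induced samples Pfkl was higher by 0.83 (SE 0.27, limma adjusted p = 0.0203). That call was lost without ΔN90 induced replicate 3 or 4, with the 2 wild type livers as the only reference (0.99) and with depth as a covariate (0.62). In skip1 induced samples the log2 difference was 0.12 with a 95% interval of -0.54 to 0.77. It turned to -0.19 without skip1 alone replicate 3 and to -0.02 without skip1 induced replicates 1 and 2. The difference between the skip1 and skip2 changes was -1.24 (95% interval -2.35 to -0.13), which failed the correction (limma adjusted p = 0.441). Of the phosphofructokinase signal per kilobase, Pfkl held 40.2% to 74.3% in induced and 30.7% to 52.9% in other libraries, ranges that overlap.

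Aldoa (chromosome 7, 126795234 to 126800751, minus strand) encodes aldolase A, the form of muscle and of many tumours. The annotation carries this symbol on 2 adjacent genes, and the tables give the symbol only. Aldoa stood at 45.4, 58.5, 48.5, 51.6 and 50.2 in skip1 induced, 61.4 and 71.8 in skip2 induced and 101, 93.2, 71.8 and 59.8 in ΔN90 induced libraries. It stood at 54.5, 42.7 and 53.5 in skip1 alone, 66.1 and 89.6 in skip2 alone and 48.9 and 49.2 in wild type libraries. Every ΔN90 induced library exceeded every skip1 induced, skip1 alone and wild type library, but the skip2 alone libraries lay inside the ΔN90 range.

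Against the 7 livers, ΔN90 induced samples differed by 0.50 in log2 (SE 0.17, limma adjusted p = 0.0254), which was not called without ΔN90 induced replicate 1 or 2 or skip1 alone replicate 2. The log2 difference of Aldoa was 0.02 (95% interval -0.39 to 0.43) for skip1 and -0.21 (95% interval -0.77 to 0.35) for skip2. The skip2 difference was 0.00 without skip2 alone replicate 2, the library with 89.6. Its sign turned with other scalings of the libraries, as did that of skip1 when 1 library was left out.

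Pgk1 (chromosome X, 106187100 to 106203699, plus strand) encodes phosphoglycerate kinase 1, which makes ATP in glycolysis and runs in reverse when liver makes glucose. Its normalized counts were 131, 164, 126, 127 and 101 in skip1 induced, 135 and 119 in skip2 induced and 155, 114, 125 and 99.3 in ΔN90 induced libraries. They were 234, 219.7 and 228 in skip1 alone, 252 and 192 in skip2 alone and 236 and 213 in wild type libraries. No induced library reached the lowest of the others. Of all tested genes, 5.37% likewise had every induced library below every other library, and 3.11% had every induced library above.

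Pgk1 fell by 0.82 in log2 in skip1 induced samples (SE 0.19, limma adjusted p = 0.00545) and by 0.87 in ΔN90 induced samples (SE 0.16, limma adjusted p = 0.000219). In skip2 induced samples it fell by 0.79 (SE 0.26, limma adjusted p = 0.0399), a call that was lost without any 1 of the 4 libraries and under 9 of 14 alternatives in all, among them no filter on low values, upper-quartile scaling (-0.57) and a fit without the other groups. These are levels of 0.57 (skip1), 0.55 (ΔN90) and 0.58 (skip2) times those of the compared livers. The 3 induced groups could not be ordered, since their means of 129.9 ± 22.3 (skip1, n = 5), 127 ± 11.7 (skip2, n = 2) and 124 ± 23.5 (ΔN90, n = 4) differed by less than 1 SD. In bulk samples, fewer cells of a type and less RNA per cell cannot be told apart. With the libraries scaled to equal totals, the median of all genes shifted by 0.44, 0.54 and 0.54 in the skip1, skip2 and ΔN90 comparisons. Pgk1 was then at -0.34, -0.19 and -0.33 and was not called, and relative to that shift it was at -0.79, -0.73 and -0.87. The summed hepatocyte markers moved the same way as Pgk1, with 4, 2 and 4 of 7 called lower in skip1, skip2 and ΔN90 induced samples, and 5 for skip1 without its replicates 1 and 2. Alb was the largest part of the sum in every library. Alb, Ttr, Serpina1a and Cps1 were lower in every induced library than in any other, as were 5.37% of all tested genes. Apoa1, Ahsg and Fgb overlapped, and the Apoa1 medians were 2499 in induced and 2448 in other libraries. With quantile normalization 0, 0 and 2 of the 7 markers were called lower and 3, 2 and 3 higher. Their part in the Pgk1 difference was not tested.

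Eno1 (chromosome 4, 150236721 to 150248879, plus strand) encodes alpha-enolase. It held 97.4% or more of the signal per kilobase of Eno1, Eno2 and Eno3 in every library. Eno1b, with normalized counts of 0 to 6.55 in induced and 0 to 5.66 in other libraries, was not part of that sum. The counts of Eno1 were 288, 273, 234, 320.4 and 326 in skip1 induced, 350.3 and 493 in skip2 induced and 328, 314, 316 and 361 in ΔN90 induced libraries. They were 301, 285 and 312 in skip1 alone, 195 and 324 in skip2 alone and 292 and 288 in wild type libraries. Skip2 induced libraries, of which there are 2, were above all libraries without the induced condition, and how many other genes share this was not determined. The log2 difference of 0.72 (95% interval 0.18 to 1.26) between skip2 induced and skip2 alone missed the threshold (limma adjusted p = 0.0646), and over the alternatives its adjusted p ran from 0.000642 to 0.533. For skip1 the difference was -0.06 (95% interval -0.46 to 0.33), with a sign that turned with the scaling, and for ΔN90 it was 0.22 (95% interval -0.12 to 0.56). The ΔN90 difference was called with quantile normalization (0.70) and with equal totals (0.76). The value with equal totals was 0.22 relative to the median of all genes.

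Pyruvate kinase makes the pyruvate and is encoded by Pkm and Pklr. Pkm (chromosome 9, 59656368 to 59679375, plus strand) encodes the M1 and M2 splice forms, which gene-level counts do not tell apart. Its normalized counts were 34.4, 28.7, 40.9, 41.5 and 42.6 in skip1 induced, 35.9 and 45.9 in skip2 induced and 42.5, 43.9, 40.1 and 47.7 in ΔN90 induced libraries. They were 18.1, 18.4 and 12.8 in skip1 alone, 21.96 and 13.7 in skip2 alone and 20.4 and 19.95 in wild type libraries. The lowest induced library, skip1 induced replicate 2, was above the highest of the others, skip2 alone replicate 1.

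Pkm was 2.22-fold higher in skip1 induced samples (log2 difference 1.15, SE 0.21, limma adjusted p = 0.00106). It was 2.26-fold higher in skip2 induced samples (1.18, SE 0.29, limma adjusted p = 0.00854) and 2.39-fold higher in ΔN90 induced samples (1.26, SE 0.18, limma adjusted p = 1.52e-05). The skip1 and ΔN90 calls held under every alternative in which Pkm was tested. The skip2 call was lost without skip2 induced replicate 2 or skip2 alone replicate 2 and when the other groups were left out of the fit. The order of the group means was ΔN90 induced (43.5), skip2 induced (40.9), skip1 induced (37.6), wild type (20.2), skip2 alone (17.9) and skip1 alone (16.4). Within the induced groups the pairwise log2 differences of Pkm were -0.22 to -0.10 and none was called. The difference between the skip1 and skip2 changes was -0.03 (95% interval -0.77 to 0.72).

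Markers of other cells moved with Pkm. The summed counts in induced and in other libraries were 429 to 791 and 255 to 421 for 8 macrophage markers, 92.0 to 360 and 65.3 to 124 for 7 stellate and fibroblast markers and 116 to 706 and 8.23 to 38.2 for 6 biliary markers. For 6 proliferation genes they were 65.4 to 175 and 13.8 to 23.4. Of these lists, 5 of 8, 3 of 5, 2 of 2 and 4 of 4 tested members were called higher in skip1 induced against skip1 alone. In skip2 induced samples 2, 3, 2 and 3 were called higher, and in ΔN90 induced samples 4, 3, 2 and 4. Calls in either direction were made for 14.7%, 14.9% and 37.6% of all tested genes. Without skip1 induced replicates 1 and 2, which were picked by their Pkm and Pklr, 7 of the 8 macrophage markers were called higher for skip1. The macrophage marker Clec4f was called lower in ΔN90 induced samples, and the stellate cell marker Dcn was called lower in skip2 and ΔN90 induced samples. Of 4 tested red cell genes, Alas2 was called lower in each comparison. Krt19 and Epcam, which define biliary cells, were at 0 in all skip1 alone libraries, while no macrophage marker was at 0 throughout a group. The biliary sum was mostly Spp1 (71.5 to 632 in induced libraries) and Pkhd1 (30.5 to 68.5), the 2 tested ones. Krt19, Krt7, Epcam and Sox9 had medians of 0.758, 0.596, 1.19 and 5.96 in induced libraries and of 0 in the others. The sum is therefore no measure of biliary cells. The 6 endothelial markers summed to 131 to 260 in induced and 187 to 240 in other libraries. The summed T and NK cell, B cell and neutrophil markers were at or below 18.1 in every library. The part of these cells in the Pkm difference was not tested.

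Pklr (chromosome 3, 89136142 to 89146784, plus strand), the liver and red cell pyruvate kinase, varied widely within several groups. Its counts were 56.0, 76.8, 16.7, 29.8 and 40.5 in skip1 induced, 54.7 and 46.5 in skip2 induced and 32.3, 79.6, 46.4 and 24.9 in ΔN90 induced libraries. They were 59.2, 44.9 and 56.5 in skip1 alone, 57.8 and 159 in skip2 alone and 88.4 and 55.7 in wild type libraries. Its coefficient of variation was 53.1% in skip1 induced and 53.0% in ΔN90 induced libraries, against 15.8% and 7.26% for Pkm. In skip2 induced and skip1 alone libraries it was 11.5% and 14.2%, below the 17.3% and 19.2% of Pkm. The log2 differences were -0.44 (95% interval -1.30 to 0.41) for skip1, -0.92 (95% interval -2.08 to 0.25) for skip2 and -0.70 (95% interval -1.43 to 0.03) for ΔN90, and none was called. The skip2 difference was -0.19 without skip2 alone replicate 2, the library with 159. The ΔN90 difference was called at -1.01 without ΔN90 induced replicate 2, the highest of its group.

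Per kilobase of transcript, Pkm held 54.6% ± 17 of the pyruvate kinase signal in skip1 induced (SD, n = 5), 50.5% ± 7.21 in skip2 induced (n = 2) and 56.8% ± 12.9 in ΔN90 induced libraries (n = 4). It held 28.2% ± 5.97 in skip1 alone (n = 3), 21.2% ± 16 in skip2 alone (n = 2) and 27.0% ± 6.09 in wild type libraries (n = 2). Single libraries ranged from 32.2% to 75.7% in the induced and from 9.88% to 34.3% in the other groups. Skip1 induced replicate 2, at 32.2%, therefore lay inside the range of livers without the induced condition. A ratio within a library is not altered by its scaling. The log2 ratio of Pkm to Pgk1 was -2.51 to -1.06 in induced and -4.16 to -3.42 in other libraries, without overlap. Since each of these genes separated the libraries by itself, in opposite directions, their ratio could not overlap and adds no separate support. The log2 ratio of Pkm to Pklr was -1.42 to 1.29 and -3.54 to -1.29, with a slight overlap. These shares and ratios use no test.

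**Figure D3:**
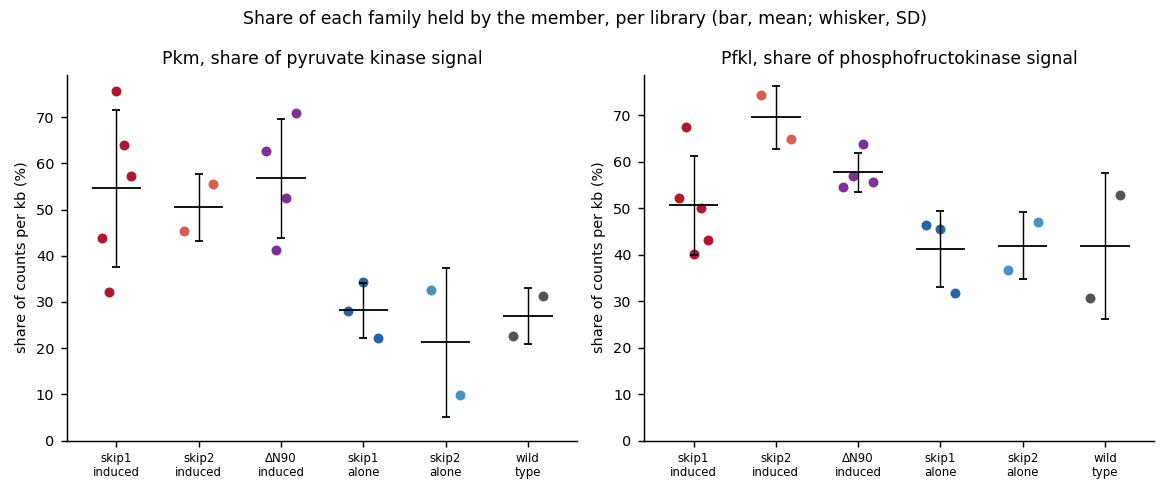
Share (%, y axis, from 0) of the pyruvate kinase and phosphofructokinase signal per kilobase held by Pkm and Pfkl in each library of 6 groups (x axis), with a bar for the mean and a whisker for the SD. The Pkm share is 32.2% to 75.7% in induced and 9.88% to 34.3% in other libraries, with skip1 induced replicate 2 the lowest of the induced ones.

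Ldha (chromosome 7, 46841475 to 46855627, plus strand) encodes the lactate dehydrogenase subunit that favours lactate formation. By median it had the highest level per kilobase of the 8 genes, at 207 in induced and 181 in other libraries. Eno1 had the higher mean in skip2 induced (214.8 against 208.7) and in ΔN90 induced libraries (167.9 against 151.0). Of the signal of Ldha and Ldhb, Ldha held 98.9% or more. Its counts were 376, 374, 329, 425 and 364 in skip1 induced, 278 and 385 in skip2 induced and 249.7, 255, 179.6 and 275 in ΔN90 induced libraries. They were 299.7, 273 and 363 in skip1 alone, 287 and 281 in skip2 alone and 209.9 and 405 in wild type libraries. The lowest skip1 induced library was above the highest ΔN90 induced library, and both groups overlapped the wild type pair. Against the livers the log2 differences were 0.27 (95% interval -0.18 to 0.71) for skip1, 0.20 (95% interval -0.40 to 0.81) for skip2 and -0.33 (95% interval -0.70 to 0.05) for ΔN90, and none was called. With equal totals the skip1 (0.74) and skip2 (0.81) differences of Ldha were called and the ΔN90 value turned to 0.22, and with quantile normalization the skip1 value (0.75) was called. Relative to the median of all genes, the values with equal totals were 0.30, 0.27 and -0.32.

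Differences among the induced groups were few. In skip1 against ΔN90 induced samples, Aldoa differed by -0.64 in log2 (SE 0.18, limma adjusted p = 0.0426), 1 of 7 genes called against 4.63% of all genes. Aldoa averaged 50.8 ± 4.88 in skip1 induced (n = 5) and 81.5 ± 19 in ΔN90 induced samples (n = 4). The Aldoa call was lost without any 1 of skip1 induced replicates 1, 3, 4 and 5 or ΔN90 induced replicates 1, 2 and 3, without skip1 induced replicates 1 and 2 together, without a filter, with upper-quartile scaling and when the other groups were left out of the fit. Ldha was higher with skip1 by 0.65 (SE 0.19), at 374 ± 34.3 (n = 5) against 239.8 ± 41.5 (n = 4), and missed the threshold (limma adjusted p = 0.0601). Over the alternatives its adjusted p ran from 0.0326 to 0.258. The log2 ratio of Aldoa to Ldha was -3.05 to -2.68 in skip1 induced, -2.43 to -2.18 in skip2 induced and -2.20 to -1.31 in ΔN90 induced libraries. It was -3.04 to -1.65 in the 7 livers without the induced condition. Aldoa and Ldha each separated skip1 from ΔN90 induced libraries, in opposite directions. Their ratio therefore had to separate these groups and adds no separate support.

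In skip1 against skip2 induced samples, 0 of the 7 genes were called by limma, against 3.53% of all genes, and 2 had an unadjusted p under 0.05. These were Eno1 (-0.54, 95% interval -0.99 to -0.09) and Pfkl (-0.85, 95% interval -1.60 to -0.10). By voom 0 of the 7 were called as well. In skip2 against ΔN90 induced samples, 0 of 7 were called by limma, against 3.03% of all genes, 0 by voom, and 0 had an unadjusted p under 0.05, with log2 differences from -0.26 to 0.46.

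Livers with an isoform alone were compared with wild type livers to see whether the isoform shifts these enzymes without the induced condition. In skip1 alone against wild type, 0 of 7 genes were called by limma, against 0% of all genes, and 0 by voom, and 0 had an unadjusted p under 0.05. Their log2 differences ran from -0.39 for Pklr to 0.38 for Pfkl. In skip2 alone against wild type, 0 of 7 were called by limma, against 0.0152% of all genes, and 0 by voom. Of the 7 genes, 1 had an unadjusted p under 0.05, Aldoa, at 77.9 ± 16.6 in skip2 alone and 49.1 ± 0.231 in wild type (n = 2 each, log2 difference 0.64, limma adjusted p = 0.967). With 2 wild type libraries the 95% interval of Pkm was -0.85 to 0.25 for skip1 alone and -0.81 to 0.40 for skip2 alone. Differences within these intervals are therefore not excluded.

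The other enzymes of the pathway were read from a list of 19 genes, of which 17 had a row and 8 were tested. In skip1 induced samples 4 of the 8 fell and 0 rose, in skip2 induced samples 2 fell and 0 rose, and in ΔN90 induced samples 4 fell and 1 rose. For this list and those below, 14.7%, 14.9% and 37.6% of all tested genes were called in these comparisons on the deposited scaling. The median log2 differences of the list were -0.51, -0.55 and -0.52. Pgam1, the phosphoglycerate mutase that acts between Pgk1 and Eno1, fell in all of these comparisons, at -0.94 (skip1), -0.98 (skip2) and -1.39 (ΔN90). It averaged 60.2 ± 10.2 in ΔN90 induced (n = 4) and 158 ± 14.0 in the 7 livers. Ldhd, which encodes D-lactate dehydrogenase, is in the list although this enzyme is not a step of glycolysis. It fell, with log2 differences of -0.96, -2.21 and -2.49, and for skip2 the genes that fell were Ldhd and Pgam1. Gapdh, which acts just before Pgk1, fell by 0.83 in skip1 (limma adjusted p = 0.0104) and 0.75 in ΔN90 induced samples (limma adjusted p = 0.00245), and stood at -0.57 for skip2 (limma adjusted p = 0.193). Tpi1, the triose phosphate isomerase gene, fell in skip1 (-0.68) and ΔN90 induced samples (-0.66) and stood at -0.53 for skip2 (limma adjusted p = 0.172). Aldoc rose in ΔN90 induced samples by 1.25. The falls depended on the scaling. With equal totals 0, 1 and 2 of the 8 enzymes were called lower in the skip1, skip2 and ΔN90 comparisons and 1, 2 and 3 higher, and the list medians were -0.05, 0.05 and 0.00 where those of all genes were 0.44, 0.54 and 0.54. Gapdh was then at -0.36, 0.03 and -0.21 and Tpi1 at -0.20, 0.07 and -0.12, none of them called. With quantile normalization 2, 1 and 2 were called lower, and Gapdh was at -0.28, 0.26 and -0.13. Pgam1 kept a negative sign under each scaling and was called lower under each for ΔN90. Its skip1 call was lost with equal totals (-0.47), and its skip2 call was lost with each of the other scalings (-0.76 to -0.38) and without skip2 alone replicate 2 (-0.94). Gapdh, like Aldoa and Ldha, had fractional read numbers in all 18 libraries, so its level may hold reads that were divided with other genes.

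**Figure D4:**
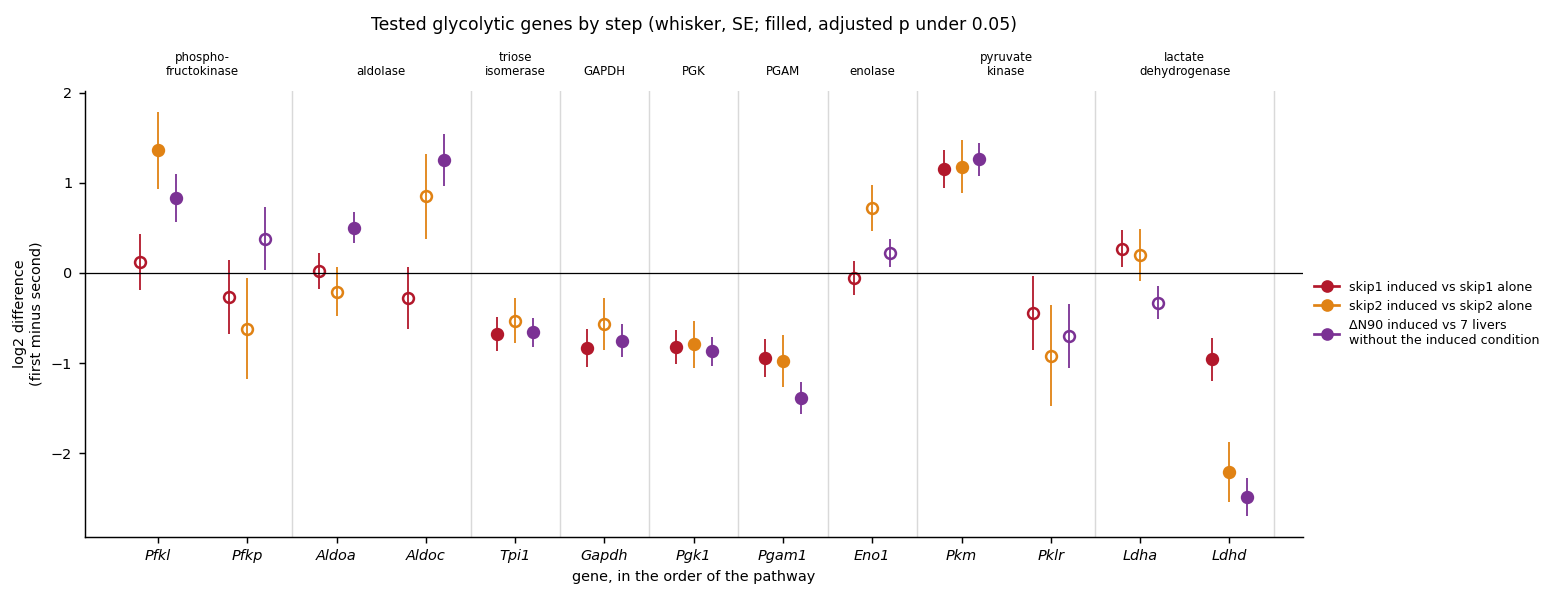
Log2 difference (y axis, first group minus second; whisker, SE) of the tested glycolytic genes in pathway order (x axis) in 3 comparisons, with filled points for an adjusted p under 0.05. Ldhd, drawn beside Ldha, is not a step of glycolysis. Tpi1, Gapdh, Pgk1 and Pgam1 lie below 0 in all 3, from -1.39 to -0.53, on the deposited scaling, and Pkm lies above 0 in all 3; with equal totals Gapdh and Tpi1 are at 0.03 and 0.07 for skip2.

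Transport genes were read from a list of 11, with 5 tested. Slc16a1 and Slc16a7, which encode monocarboxylate transporters 1 and 2 for lactate and pyruvate, rose in all of the 3 comparisons, and 0 genes of the list fell. Slc16a1 averaged 34.4 ± 8.25 in skip1 induced (n = 5) and 15.95 ± 4.37 in skip1 alone (n = 3), and its log2 differences were 1.07 (skip1), 1.35 (skip2) and 0.98 (ΔN90). Those of Slc16a7 were 1.05, 0.89 and 1.49. Both were called higher with each of the other scalings too, but 0 of the 5 were called by limma for skip2 without skip2 alone replicate 2, when Slc16a1 was at 1.52 and Slc16a7 at 0.58. Slc2a2, the hepatocyte glucose transporter GLUT2, was at -0.13, 0.26 and 0.11 and was not called. Slc2a1 (GLUT1) and Slc16a3 (monocarboxylate transporter 4) had a mean below 10 and were not tested. Slc2a1 was at 4.77 to 16.3 in induced and 1.64 to 9.97 in other libraries.

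Genes of glucose output and fructose entry fell without a rise on the deposited scaling in the list of 7, all of them tested: 3 in skip1, 2 in skip2 and 5 in ΔN90 induced samples. For skip2, 1 was called higher and 1 lower with quantile normalization and with equal totals, and for ΔN90 1 was called higher with equal totals. Without skip1 induced replicates 1 and 2 the skip1 count of genes that fell was 4, and without skip2 alone replicate 2 the skip2 count was 1. G6pc, the glucose 6-phosphatase catalytic subunit gene, fell, at -1.77, -2.76 and -3.66, and Fbp1, the fructose 1,6-bisphosphatase gene, fell, at -1.36, -1.13 and -1.45. G6pc was called lower under each scaling, whereas Fbp1 was not called for skip2 with the other scalings (-0.91 to -0.33). Of 10 tested genes for pyruvate dehydrogenase, its regulators and the mitochondrial pyruvate carrier, 3 fell in skip1 and 6 in ΔN90 induced samples, against 1 and 3 with equal totals. The skip1 count was 5 without its replicates 1 and 2. In skip2 induced samples Pdhb, a subunit gene of pyruvate dehydrogenase, fell and Mpc1, a subunit gene of the pyruvate carrier, rose by 0.88. Neither was called without skip2 alone replicate 2 (-1.17 and 0.76), and Pdhb was not called with equal totals (-0.57). Of 4 tested hypoxia-inducible genes 0 were called by limma in any of the 3 comparisons, while with equal totals 1 (skip1), 0 (skip2) and 2 (ΔN90) of the 4 were called higher. Without skip1 induced replicates 1 and 2, 1 of the 4 was called higher for skip1. Among 11 tested transcription and splicing factors, 0 were called by limma for skip1 and skip2 on the deposited scaling. With equal totals 2 were called higher for skip1 and 3 for skip2, with Epas1 at 0.67 and 1.18 and Arnt, called for skip2, at 1.21. The median of all genes then stood at 0.44 (skip1), 0.54 (skip2) and 0.54 (ΔN90). Every value and count given here with equal totals includes that shift. With quantile normalization Epas1 was called for skip2 (1.03), and without skip1 induced replicates 1 and 2 Mlxipl was called lower for skip1 (-0.77). In ΔN90 induced samples the hypoxia-inducible factor genes Epas1 (1.03) and Arnt (0.61) rose and Mlxipl fell by 1.02, calls that were also made with each of the other scalings.

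For likeness, 740 genes with a mean count of at least 100 were ranked by their root mean square difference from Pkm or Pklr over the 6 group means, each gene standardised to an SD of 1. The 5 nearest to Pkm were Rps3 (0.147), Cd74 (0.157), Sptbn1 (0.176), Flna (0.179) and Rpl23a (0.206). Those nearest to Pklr were Usp9x (0.172), Ppara (0.186), Sord (0.192), Herpud1 (0.204) and Iqgap2 (0.218). With 6 points, many genes share such a profile.

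The subtypes were read from deposited z-scores, in which a gene is centred and scaled over its libraries, so a difference is in SDs and gives no fold. The genes of that table were selected by the authors, and 6 of the 8 members have no row in it. Pkm was at 0.484, -0.0524, 0.187 and 0.162 in subtype A. In subtype B its lowest, median and highest values were -0.193, 0.649 and 0.85, with replicates 1, 4 and 8 below 0 and replicate 9 at 0.224. It was at -1.93, -2.02 and -1.77 in sgActin with YAPS127A. Pgk1 was at -0.0689, -0.373, -0.258 and -0.152 in subtype A, at -0.677, -0.568 and -0.506 (lowest, median and highest) in subtype B and at 2.07, 1.93 and 2.18 in sgActin with YAPS127A. Both subtypes thus had higher Pkm and lower Pgk1 than sgActin with YAPS127A, without overlap.

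Against sgActin with YAPS127A, Pkm was higher by 2.10 SD in subtype A (SE 0.26, limma adjusted p = 1.05e-06) and by 2.30 SD in subtype B (SE 0.23, limma adjusted p = 4.98e-08). Pgk1 was lower, with differences of -2.27 (SE 0.09) and -2.63 SD (SE 0.08). As 97.3% of the genes in that table were called in subtype A and 99.6% in subtype B, these calls say little about the members. Between the subtypes, Pgk1 was higher in subtype A by 0.36 SD (SE 0.07, limma adjusted p = 0.00118), at -0.213 ± 0.132 (n = 4) against -0.575 ± 0.0505 (n = 9), 1 of 2 genes where 61.1% of all genes were called. Pkm differed by -0.20 SD with a 95% interval of -0.64 to 0.24. The SD of a gene here includes the sgActin with YAPS127A libraries, so these sizes depend on that group. Over the alternatives, among them scores rescaled over the compared groups, Pgk1 ran from 0.31 to 1.9 and Pkm from -0.52 to -0.12. Of the other glycolytic enzymes in the table, Gapdh, Tpi1 and Pgam1 were higher in subtype A than in subtype B and lower in both subtypes than in sgActin with YAPS127A. The same held for Ldhd, which is not a glycolytic enzyme. Slc16a1 was higher in both subtypes than in sgActin with YAPS127A (differences of 2.60 and 2.19 SD). Slc16a7, which was higher in the induced groups of the count table, was lower in subtype A (0.137 ± 0.27, n = 4) and subtype B (-0.63 ± 0.279, n = 9) than in sgActin with YAPS127A (1.87 ± 0.615, n = 3), by -1.73 and -2.50 SD (limma adjusted p = 6.85e-06 and 1.17e-08).

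**Figure D5:**
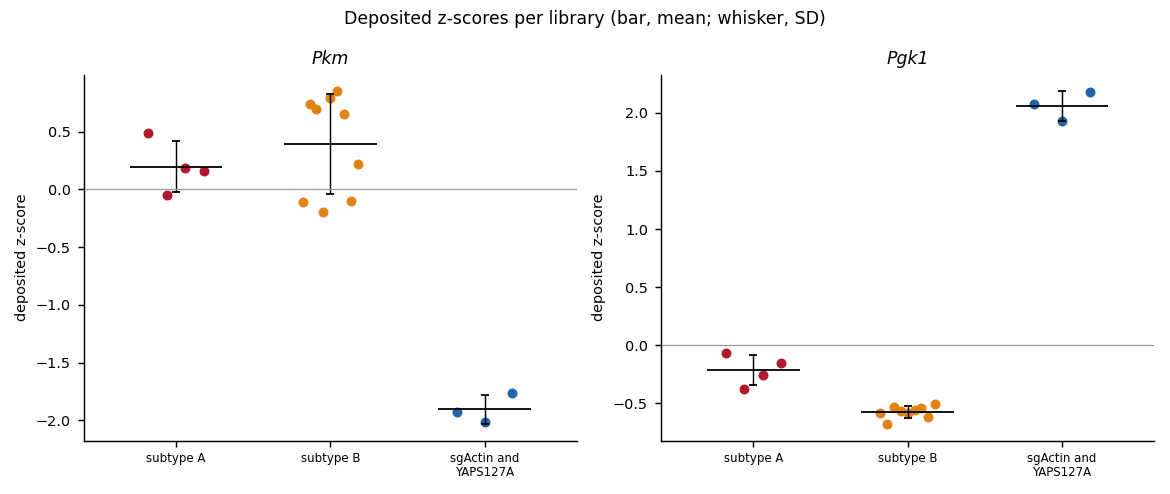
Deposited z-scores (y axis, SDs of a gene) of Pkm and Pgk1 per library in 3 groups (x axis), with a bar for the mean and a whisker for the SD. Pkm is -0.193 to 0.85 in the subtypes and -2.02 to -1.77 in sgActin with YAPS127A, and Pgk1 is -0.677 to -0.0689 and 1.93 to 2.18.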

How the data were processed

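The normalized counts are a signal per gene that the authors deposited for 18 libraries. FastQC, STAR, RSEM and DESeq2 and the build mm10 are named, per the submitters' processing notes, with versions and settings not given in the sources used here. Per the labels' protocols the libraries were strand-specific. A step of 1 read was found per library. Between 59.3% and 60.5% of values above 0 were whole multiples of it (within 0.001), and estimated reads are the column total divided by the step. The z-score table is a score that the authors deposited for 1659 genes. Its 16 subtype libraries were scaled apart from the other 18.

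Genes with a mean of at least 10 (6592) were tested with limma 3.58.1 in R 4.3.3 on log2(value + 1), with 1 coefficient per group over all 18 libraries, a prior variance trend and two-sided p-values adjusted by Benjamini-Hochberg. Z-scores were tested without a trend. ΔN90 induced was set against the library-weighted mean of skip1 alone, skip2 alone and wild type. Intervals are 95% limma intervals. Simulated data with 200 altered genes served to check the fit. Positions and transcript lengths are from GENCODE M21, promoters from RefSeq. Members and gene lists were chosen with earlier results of these data known. Named genes were the 8 members, up to 4 called genes per list and a few fixed genes, of which a part is printed. Some genes of these lists are not reported here. The alternatives were other pseudocounts (0.5 and 5), filters, scalings, fits, a depth covariate, voom on estimated reads and leaving out libraries. Scaling to equal totals and the difference between the skip1 and skip2 changes were added after seeing the data, as were the lists under other scalings and without doubted libraries. Replicates were numbered in accession order.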

Additional observations from a re-analysis of the deposited data

How the results depend on the processing

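No paired analysis was possible because the labels number no replicates and accession order pairs nothing. The number of called members stayed within 1.5 times under 18 of 19 alternatives for skip1 induced, 10 of 14 for skip2 induced and 21 of 22 for ΔN90 induced, but under only 9 of 20 for skip1 against ΔN90 induced. With a mean of at least 50, which drops Pkm and Pfkl, it was 1 for skip1 induced, 2 for ΔN90 induced and 2 for skip1 against ΔN90 induced. With only the compared groups in the fit it was 1 for skip2 induced. For skip1 against ΔN90 induced it was 0 without a filter and without skip1 induced replicates 1 and 2, and 2 with quantile normalization. Leaving out 1 library gave 2 for skip1 induced, 0 to 2 for skip2 induced, 3 to 4 for ΔN90 induced and 0 to 1 for skip1 against ΔN90 induced. A lone library left in a group was assumed to vary like the other groups.

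Of 550 recomputed differences of single members, 482 kept direction and side of the threshold, 36 lost the call, 15 gained it and 17 turned their sign, all of these from values that were not called. For skip1, Eno1 was then 0.07 (upper quartile), 0.35 (quantile) and 0.41 (equal totals), Pklr 0.02 (equal totals) and Pfkl -0.02 (without replicates 1 and 2). For skip2, Aldoa was 0.01, 0.04 and 0.38 with these scalings and Ldha -0.14 with the depth covariate. For ΔN90, Ldha was 0.13 (quantile) and 0.22 (equal totals). Leaving out 1 library gave -0.11 to 0.01 for Eno1, -0.09 to 0.08 for Aldoa and -0.19 to 0.41 for Pfkl in skip1, and -0.43 to 0.00 for Aldoa and -0.03 to 0.44 for Ldha in skip2. With quantile normalization Pgk1 was not called for skip1 (-0.47) or skip2 (-0.34), and over its alternatives the adjusted p ran from 0.00174 to 0.135 and from 0.0208 to 0.57. The causes were not tested. Counts over all genes ran from 545 to 1915 for skip1 induced, 346 to 1769 for skip2 induced and 926 to 3703 for ΔN90 induced.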
